A study of Rattus norvegicus with 21 samples.

Results

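The undosed livers of 3 Sprague-Dawley (SD) rats and 3 Fischer344 (F344) rats were compared. These were the 0 mg/kg groups of the PBO study (piperonyl butoxide, an insecticide synergist) and of the DAM study (dammar resin, a plant resin), and they made up 6 of the 21 arrays of the series, 1 array per male animal. The SD controls were given 0.5% methyl cellulose by mouth for 7 days and their livers were put in RNAlater. The F344 controls ate a basal diet for 28 days and their livers were frozen at once in liquid nitrogen. No compound was given to either group, and the labels describe no genetic modification and give no age. Strain, vehicle, study length and preservation changed together between the groups, so they cannot be told apart in any difference below. The other 15 animals, 9 SD rats at 500, 1000 or 1500 mg/kg of PBO and 6 F344 rats at 800 or 2000 mg/kg of dammar resin, served only to show whether a difference was also present in animals that the comparison did not use.

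SD rats are an outbred stock, in which each animal carries its own mix of alleles. F344 rats are an inbred strain, in which the animals are close to genetically identical. The liver synthesises plasma proteins and bile acids, clears steroids and drugs by oxidation and conjugation, and follows growth hormone pulses, feeding and the day-night cycle in its gene expression. A short oligonucleotide array reads a gene by sets of probes, most of them near the 3' end of the transcript, and different probe sets of a gene read different stretches of it. Whether the probe sets of a gene moved together is given beside each large difference.

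The signals had been scaled by the authors so that the trimmed mean was between 500.25 and 500.29 on all arrays, but the median signal was 106.8 to 114.1 on the SD arrays and 78.88 to 86.2 on the F344 arrays. The ratio of 3' to 5' signal of the beta-actin control, which rises as RNA is shortened, was 2.85, 3.03 and 3.16 in the SD livers and 8.23, 9.81 and 7.08 in the F344 livers. That of GAPDH was 1.13, 1.17 and 1.16 against 1.71, 1.74 and 1.62. Neither ratio overlapped between the groups (exact permutation p = 0.1 for each, two-sided, the smallest that 3 against 3 allows), and in dosed animals too the beta-actin ratio was 2.38 to 2.83 in SD and 5.56 to 9.71 in F344. The 3' to 5' balance thus moved with the strain, and its part in the differences was not tested. Pearson correlations between arrays across probe sets were 0.9638 to 0.9693 within SD, 0.9817 to 0.9831 within F344 and 0.9109 to 0.9245 between them. Xist, a transcript of females, had 4 probe sets with signals of 0.268 to 28.3, none of which passed the filter on low values; Ddx3y was not analysed here.

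Differences are given as F344 minus SD on the scale of log2(signal + 16), which understates the change of probe sets with low signal, with the standard error of the limma fit and n = 3 animals per group. Of 18625 probe sets tested, 6876 (36.9%) had an adjusted p below 0.05, 3209 higher (17.2%) and 3667 lower (19.7%) in F344. Scaling the arrays to a common median moved the median of all probe sets from -0.05 to 0.33 and turned the split into 7211 higher and 1648 lower (81.4% higher in place of 46.7%), and quantile normalization gave 3482 and 2941 (54.2% higher). Differences no larger than that shift have no settled direction for that reason. A difference of at least 2, which is 4-fold, was reached by 78 probe sets that were higher (0.419%) and 329 that were lower (1.77%) in F344. Under median scaling these became 165 and 193, so that 46.1% in place of 19.2% were higher, and under quantile normalization 105 and 269 (28.1% higher). The signals of the groups did not overlap for 6749 called probe sets (36.2%). In the gene lists below each gene is represented by its brightest tested probe set. Taken so over all 10674 genes, 3789 (35.5%) were called, 2068 higher (19.4%) and 1721 lower (16.1%), and the share called in a list is to be read against 35.5%. The filter acted on the mean of all 6 arrays, so a dim gene could pass it through the group in which it was brighter.

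Large differences were often not shared by the other probe sets of the same gene. Among 227 probe sets with 1 gene symbol that were lower by at least 2, 55 were the only tested probe set of their gene. For the other 172, another probe set of the gene was also lower by at least 2 in 26 cases (15.1%), was called lower by less in 58, was not called in 52 and was called higher in 36. Among 60 that were higher by at least 2, 29 were the only one (48.3%), and of the other 31, 4 were joined by another (12.9%), 15 by a smaller called one, 8 by none called and 4 by one called lower. At a size of 1, chosen after the values were seen, every tested probe set was higher in 13 and lower in 30 of the 2772 genes with at least 2, and 27 genes had probe sets called both ways. The 3' to 5' balance of the RNA moved with the strain, and its part in these patterns was not tested.

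**Figure D1:**
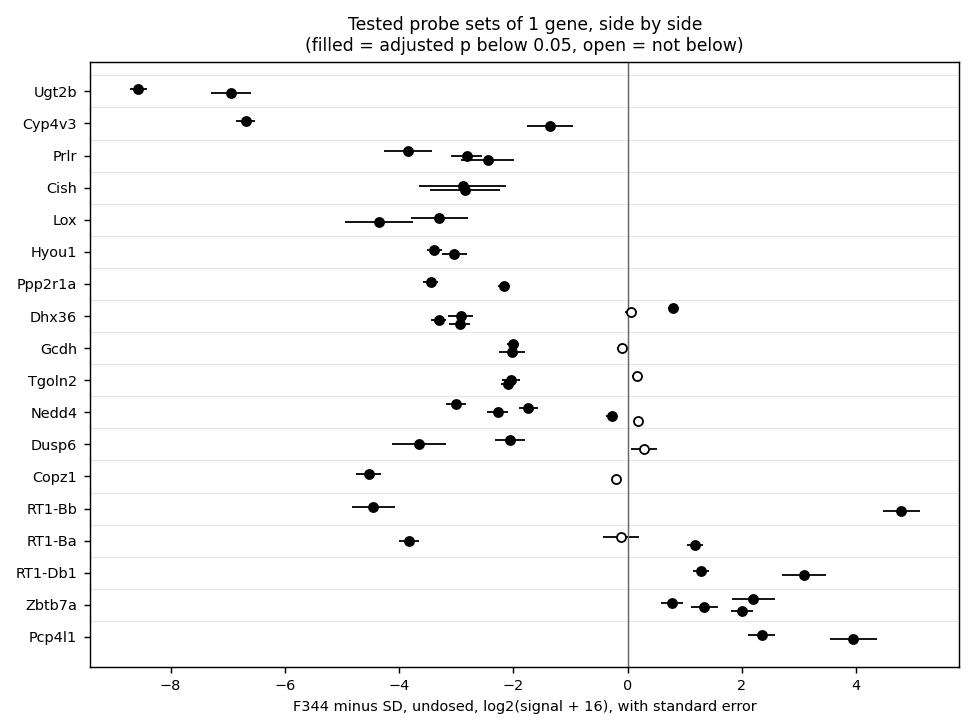
Difference between the undosed groups (F344 minus SD, log2(signal + 16), with standard error, n = 3 per group) for every tested probe set of 18 genes, filled where the adjusted p was below 0.05. All probe sets of Ugt2b, Prlr, Cish, Lox, Hyou1 and Ppp2r1a lie below -2, while Dhx36, Gcdh, Tgoln2, Nedd4 and Copz1 have others near 0 and RT1-Bb has one at -4.45 and one at 4.79.

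The deepest difference was in Ugt2b, a UDP-glucuronosyltransferase of the family that conjugates steroids, bile acids and drugs with glucuronic acid so that they can be excreted. Its first probe set read 25952, 27724 and 26690 in the SD livers and 55.0, 39.7 and 73.8 in the F344 livers. The second read 4835, 5150 and 2555 against 2.87, 28.1 and 25.5. The mean of the first was 26789 ± 890 (standard deviation, n = 3) in SD livers and 56.2 ± 17.1 in F344 livers, and neither probe set overlapped between the groups. The differences were -8.56 ± 0.15 (SE, adjusted p = 1.16e-09) and -6.94 ± 0.35 (adjusted p = 4.75e-07). Genes of this family are near-identical copies of one another, so the reads of a probe set may be shared among members. RefSeq places the start of Ugt2b on chromosome 14, and the 300 bases from 250 before to 50 after it (GRCr8, chr14:20985199-20985498, plus strand) are shown because this is the gene start behind the deepest difference; the array did not read this stretch.

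Ugt2b promoter: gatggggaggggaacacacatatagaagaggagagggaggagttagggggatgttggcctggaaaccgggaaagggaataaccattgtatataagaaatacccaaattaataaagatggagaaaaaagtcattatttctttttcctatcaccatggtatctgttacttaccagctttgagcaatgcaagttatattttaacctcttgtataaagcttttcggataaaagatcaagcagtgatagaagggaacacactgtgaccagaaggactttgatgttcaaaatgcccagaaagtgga

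The dosed animals divided on Ugt2b within the SD stock. Both probe sets were low in all 6 dosed F344 rats, the first at 16.8 to 69.8. Of the 9 dosed SD rats, 6 had a first signal of 17558 to 30102, and 3 had 62.5, 55.8 and 34.0, which is the F344 level. The second probe set read 7.94, 4.29 and 37.7 in the same 3 animals. One of these had received 1000 mg/kg of PBO and the others 1500 mg/kg, so that animal and dose are mixed there and their parts were not tested.

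A probe set was counted as on/off where all 3 signals of one group were above 400, all 3 of the other were below 100 and the difference was called. This held for 8 probe sets that were on in F344 (0.043%) and 26 that were on in SD (0.14%), and 23 of these 34 had 1 gene symbol. Ugt2b was the gene with 2 such probe sets in the same direction, and by this rule no gene had 2 that were on in F344, also at an unadjusted limma p below 0.05. In the dosed animals 8 of the 34 were on/off on every array as well. For 7 of the 34 at least 1 dosed SD animal fell on the side of F344, and for none did a dosed F344 animal fall on the side of SD.

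**Figure D2:**
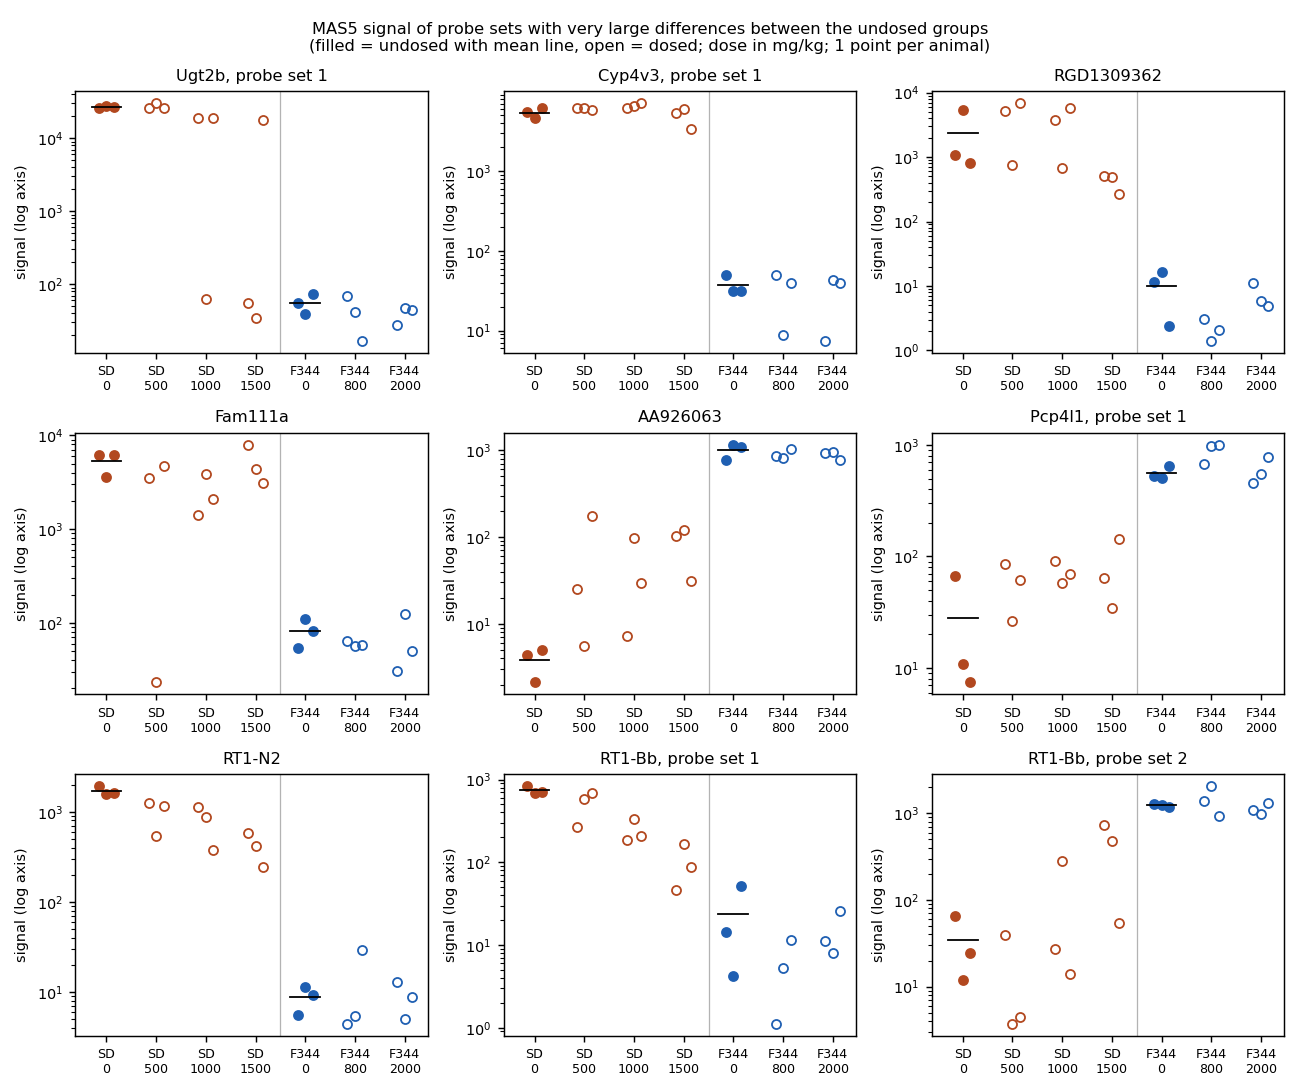
Signal of 9 probe sets in all 21 animals by strain and dose (mg/kg), on a log axis, with the undosed animals filled and their mean drawn as a line. Ugt2b splits the dosed SD animals into 6 high and 3 low, Fam111a has 1 low dosed SD animal, and the pair of RT1-Bb probe sets runs in opposite directions.

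Among genes that metabolise lipids and steroids, Cyp4v3, a cytochrome P450 that hydroxylates fatty acids at their end, had the next largest difference of a probe set with 1 gene symbol. Its first probe set read 5445, 4698 and 6133 in SD and 49.2, 31.0 and 31.4 in F344. Every dosed SD rat was between 3346 and 7090 and every dosed F344 rat between 7.43 and 50.5. The difference was -6.68 ± 0.16 (adjusted p = 9.14e-09) and, in dosed animals, -7.04 ± 0.23. The gene's second probe set read 286.5, 184.7 and 356.4 against 152.4, 37.8 and 129.5, a difference of -1.37 ± 0.41 (adjusted p = 0.0238) that was no longer called without SD replicate 1 (-1.32), without SD replicate 3 (-1.17) and fell to -0.85 without F344 replicate 2. Direction was thus shared by both probe sets and size was not. Of 9 measured fatty acid hydroxylating P450s, 3 were called lower and none higher (33.3%, below the share over all genes), with a median of -0.06 against -0.05 over all probe sets tested; the others that were called were Cyp4a8 (-1.38 ± 0.20, with a second probe set not called at -0.32) and Cyp4f6 (-0.68 ± 0.12). Akr1c14, which reduces hydroxysteroids, was lower in all 3 of its probe sets, at -1.06, -2.09 and -1.37, and the retinol and steroid dehydrogenase Hsd17b6 differed by -1.23 ± 0.09. Of 21 measured aldo-keto reductases and short-chain dehydrogenases 9 were lower and 1 was higher (47.6% called against 35.5% over all genes). The median was -0.26 and became 0.13 under median scaling, where the median of all probe sets was 0.33.

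Among conjugating enzymes, the sulfotransferase Sult1c2 went the other way. It read 403.6, 359.6 and 426.5 in SD and 1914, 1669 and 1949 in F344, a difference of 2.17 ± 0.12 (adjusted p = 7.18e-07), and the groups were also apart in dosed animals, where the SD signals were 20.3 to 687.3 and the F344 signals 1923 to 2589. Of 9 measured sulfotransferases 4 were higher and 1 was lower (55.6% called against 35.5% over all genes). Of 6 measured glucuronosyltransferases Ugt2b and Ugt2a1 (-1.15 ± 0.15) were lower and none was higher, a share of 33.3% that is below that over all genes. Of 20 glutathione S-transferases 4 were higher and 6 lower (50%), with Gstm1 at -0.79 ± 0.10 and Gstt2 at 0.99 ± 0.11 in its brighter probe set and not called in the other (-0.67 ± 0.29).

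Genes of the major histocompatibility complex, called RT1 in the rat, present peptides to T cells and are among the most variable genes between strains. Class I genes were read at very different levels. RT1-N2 gave 1917, 1554 and 1634 in SD and 5.55, 11.4 and 9.24 in F344 (-6.12 ± 0.18, adjusted p = 2.89e-08). RT1-A gave 1786, 1495 and 2070 against 15.03, 58.0 and 52.7 (-5.04 ± 0.30), and was on/off in all dosed animals as well. RT1-CE12 gave 15629, 15694 and 16862 against 2024, 1767 and 2033 (-3.04 ± 0.09). RT1-CE16 was opposite, with 164.1, 170.9 and 290.9 against 1209, 1225 and 1148 (2.47 ± 0.19), so the class I probe sets did not share a direction. These genes are near-identical copies whose sequence differs by strain, and a signal of one probe set cannot be assigned to one copy.

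Class II genes, which antigen-presenting cells use, showed probe sets of 1 gene going opposite ways. RT1-Bb, the beta chain of one class II molecule, read 66.0, 12.0 and 24.4 in SD and 1285, 1242 and 1178 in F344 with one probe set (4.79 ± 0.33, adjusted p = 3.65e-06). Its other probe set read 830.3, 689.4 and 716.7 against 14.4, 4.27 and 51.5 (-4.45 ± 0.37, adjusted p = 1.48e-05). Neither set overlapped between the groups, and together they gave no direction for the gene. In the dosed SD rats the first ranged from 3.72 to 727.0, with 2 animals above 400, and the second from 46.2 to 684.8. RT1-Ba, the alpha chain of the same molecule and named after its values were seen, likewise had one probe set at 1.18 ± 0.14, one at -3.83 ± 0.18 and a dim one that was not called (-0.12). RT1-Db1, also named afterwards, was higher in both of its probe sets, by 3.08 ± 0.39 and 1.28 ± 0.14.

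The genes that cut and carry peptides for class I molecules lie within the same complex, and 4 of them were higher in F344. Tap1, a subunit of the peptide transporter, read 380.9, 361.6 and 399.0 in SD and 1050, 1289 and 1285 in F344 (1.62 ± 0.12, adjusted p = 7.47e-06). The immunoproteasome subunits Psmb8 (1.10 ± 0.10) and Psmb9 (0.56 ± 0.10) and the other transporter subunit Tap2 (0.99 ± 0.16) were also higher, and no group overlapped; these 3 were named after their values were seen. The immunoproteasome subunit Psmb10, which lies outside that region, was lower (-0.62). In dosed animals the differences of Tap1, Tap2, Psmb8 and Psmb9 were 1.11, 1.12, 1.48 and 1.30. The class II invariant chain Cd74 was not called (0.24 ± 0.10, adjusted p = 0.0944). Of 26 measured genes of the list 12 were higher and 5 lower (65.4% called against 35.5% over all genes), with a median of 0.38 against -0.05 over all probe sets tested. Among the 12, RT1-Bb, RT1-Ba and RT1-CE5 each had another probe set called lower (-4.45, -3.83 and -2.52). RT1-N2 and RT1-A are not in the list, so its counts and median depend on the probe sets and genes taken. Of 26 measured interferon response genes 4 were higher and 1 was lower (19.2%), with a median of 0.13.

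Several large single differences fell outside these families. RGD1309362, a gene named by its identifier, read 1077, 5333 and 806.5 in SD and 11.3, 16.5 and 2.36 in F344 (-6.06 ± 0.57), and no dosed animal crossed between the groups, with 266.9 to 6829 in SD and 1.40 to 10.9 in F344. Fam111a, a protease linked to DNA replication and virus restriction, read 6235, 3578 and 6193 against 53.7, 109.7 and 82.8 (-5.77 ± 0.25, adjusted p = 2.14e-07). One dosed SD rat, at 500 mg/kg, had a Fam111a signal of 23.2, while the other dosed SD animals had 1426 to 7922. Each gene had 1 tested probe set, so no second reading bears on it.

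Higher in F344 were AA926063, a transcript known by its sequence record, with 4.38, 2.12 and 4.96 in SD and 771.9, 1151 and 1074 in F344 (5.66 ± 0.23, adjusted p = 1.53e-07). Pbsn, probasin, a small secreted lipocalin best known from the prostate, read 7.04, 18.8 and 191.2 against 1475, 1606 and 926.2 (4.58 ± 0.65). Mlc1, a membrane protein best known from astrocytes, read 101.8, 59.5 and 740.4 against 3075, 3176 and 3423 (4.10 ± 0.65), and dosed signals were 40.2 to 1322 in SD and 1870.1 to 2843 in F344. For Pbsn and Mlc1 SD replicate 3 was the highest of the SD animals, yet below every F344 animal. H2-Q7-ps1, annotated as a class I pseudogene, differed by 3.72 ± 0.23.

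Pcp4l1, a small protein related to a calmodulin regulator, had the largest median difference upward among genes with several probe sets. It read 66.5, 10.9 and 7.43 in SD and 530.2, 508.6 and 651.8 in F344 with one probe set (3.95 ± 0.42) and 121.9, 117.7 and 62.3 against 526.5, 495.2 and 670.3 with the other (2.35 ± 0.24). Zbtb7a, a zinc finger repressor, was higher in all 4 of its tested probe sets, by 2.00, 1.34, 0.77 and 2.20, and all 4 were called. In dosed animals the differences of Pcp4l1 were 3.18 and 1.42, and those of Zbtb7a were 1.93, 1.11, 0.86 and 1.32.

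In another group of genes, probe sets near 0 stood beside probe sets with a large deficit. Dhx36, a helicase that unwinds G-quadruplexes, had 3 probe sets at -2.94, -3.31 and -2.92, one at 0.06 and one called higher at 0.80. Copz1, a coat protein of vesicles between Golgi and endoplasmic reticulum, read 2725, 2909 and 2603 in SD and 67.0, 105.1 and 152.7 in F344 with one probe set (-4.53 ± 0.22), and 4947, 5350 and 4817 against 4482, 4362 and 4311 with the other (-0.20 ± 0.08, adjusted p = 0.075). Gcdh, which breaks down lysine, had 2 probe sets at -2.02 and -2.01, while its brightest read 10139, 10689 and 10689 against 9184, 9834 and 10328 (-0.10 ± 0.08, adjusted p = 0.322). Tgoln2 of the trans-Golgi network had -2.09 and -2.04 beside 0.15, and the ubiquitin ligase Nedd4 had -2.27, -1.74 and -3.01 beside -0.28 and 0.18. The Nedd4 value of -0.28 was not called in 5 of the 6 fits without 1 array (-0.31 to -0.21, adjusted p 0.0549 to 0.108), namely all but that without SD replicate 2. The size thus depended on the probe set in each of these 5 genes, and Dhx36 was the one with probe sets called in both directions. Cct6a, Eif4h and Mbnl2, named after their values were seen, were on/off in all 21 animals with 1 probe set of several each.

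Ppp2r1a, the scaffold subunit of protein phosphatase 2A, was lower in both of its probe sets, with 2380, 2526 and 2319 against 468.7, 570.1 and 545.5 (-2.16 ± 0.11) and 1158, 1201 and 1187 against 89.8, 88.0 and 103.5 (-3.45 ± 0.14). Hyou1, a chaperone of the endoplasmic reticulum of the Hsp70 family, read 2157, 1923 and 1826 in SD and 183.8, 153.6 and 185.8 in F344 (-3.38 ± 0.13, adjusted p = 1.09e-07) and differed by -3.03 in its second probe set. In dosed animals the Hyou1 differences were -3.06 and -3.24. Calr, calreticulin, a calcium-binding chaperone of the same compartment, read 16009, 14779 and 14637 against 4784, 4823 and 4720 (-1.66 ± 0.08). Of the 9 measured chaperones of this compartment, grouped after their values were seen, 4 were lower, the others being the disulfide isomerase Pdia6 (-0.56 ± 0.08, adjusted p = 0.000324) and Sdf2l1 (-0.54 ± 0.17, adjusted p = 0.03). The Sdf2l1 groups overlapped, and its call was lost without SD replicate 1 (-0.35), F344 replicate 2 (-0.47) or F344 replicate 3 (-0.48), under median scaling (-0.15) and without the trend. The other 5 were not called, with Hspa5 at -0.11 ± 0.10, Hsp90b1 at -0.06 ± 0.10, Pdia4 at 0.27 ± 0.14, Dnajb9 at -0.41 ± 0.16 and Dnajb11 at -0.31 ± 0.12. Of 17 measured chaperones of all compartments 5 were lower and 1 was higher (35.3%, close to the share over all genes), and the calls of Pdia6 (-0.56) and Hsp90ab1 (-0.59) were lost under median scaling (-0.17 and -0.20).

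Growth hormone acts on the liver through its receptor, the kinase JAK2 and the transcription factor STAT5B. Male rats secrete it in pulses, and STAT5 raises its own inhibitors Cish and Socs2 after each pulse. Of 15 measured genes of this axis, 6 were lower and 4 were higher in F344 (66.7% called against 35.5% over all genes). The median was -0.11 against -0.05 over all probe sets tested. The receptor Ghr was counted as higher (0.27 ± 0.08), a call lost in 4 of the 6 fits without 1 array. Its other probe set was called lower (-1.34), so its direction was not settled. Igf2r was counted as higher too (0.36, lost in 5 of these fits), with its other probe set at 0.745. The inhibitor Cish read 1070, 140.7 and 1073 in SD and 82.3, 54.9 and 55.1 in F344 (-2.85 ± 0.62, adjusted p = 0.00514), and 778.5, 58.0 and 787.5 against 42.1, 19.6 and 40 with its second probe set (-2.89 ± 0.76, adjusted p = 0.0139). SD replicate 2 was the lowest SD animal in both, above every F344 animal. The second call was lost without SD replicate 1 (-2.32, adjusted p = 0.054), SD replicate 3 (-2.31, adjusted p = 0.053) or F344 replicate 2 (-2.66, adjusted p = 0.052).

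The Cish promoter of RefSeq (GRCr8, chr8:116850719-116851018, plus strand) is shown because this gene is a direct target of STAT5, whose binding motif TTCNNNGAA is its own reverse complement, so that a match counts for both strands. It holds 4 matches, in capitals, which do not overlap one another and begin at -241, -230, -136 and -119 relative to the start. At least 1 match is held by 2970 of 33469 promoters of the same length (8.87%), and 4 or more by 2 promoters (0.00598%). A match is not a measured binding site.

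Cish promoter: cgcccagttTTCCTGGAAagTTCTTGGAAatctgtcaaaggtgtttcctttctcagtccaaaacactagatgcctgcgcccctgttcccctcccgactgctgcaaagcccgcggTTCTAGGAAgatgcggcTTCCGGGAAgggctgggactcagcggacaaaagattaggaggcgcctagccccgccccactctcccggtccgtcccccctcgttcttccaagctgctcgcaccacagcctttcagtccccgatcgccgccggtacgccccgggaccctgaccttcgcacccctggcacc

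Socs2, the other inhibitor, read 653.1, 571.2 and 909.6 in SD and 227.7, 94.5 and 96.2 in F344 (-2.30 ± 0.30, adjusted p = 0.000262), without overlap. The prolactin receptor Prlr, which is expressed more in female than in male liver and answers to growth hormone, was lower in all 3 probe sets. The deepest read 710.2, 306.4 and 1327 against 36.4, 24.1 and 34.0 (-3.85 ± 0.42), and the others differed by -2.45 and -2.82. Onecut1, a hepatocyte and bile duct transcription factor that answers to growth hormone in rat liver, read 1866, 554.1 and 2122 against 446.2, 313.3 and 197.0 (-2.05 ± 0.45) and differed by -2.31 in its second probe set; the first call was lost with all 21 arrays in the fit (adjusted p = 0.0962). Bcl6, a repressor that opposes STAT5, was higher, with 586.4, 1747 and 938.4 against 1653, 5542 and 6440 (1.96 ± 0.49, adjusted p = 0.0104), but its groups overlapped and the call was lost with all 21 arrays in the fit (adjusted p = 0.0836).

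Genes further along the axis moved less. Igf1, the main circulating growth factor made on growth hormone's signal, read 29370, 32963 and 36522 in SD and 30090, 33553 and 31136 in F344 with its brightest probe set (-0.06 ± 0.09, adjusted p = 0.666). Its other probe sets differed by 0.04 and 0.68, and the second of these was called. Igfbp4, which binds the growth factor, was lower (-1.54 ± 0.11, adjusted p = 3.92e-06). Igfals, which stabilises the factor in blood, differed by -0.71 ± 0.08, a call that was lost with all 21 arrays in the fit (adjusted p = 0.179).

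The pattern of growth hormone also sets which P450s are male or female in rat liver. Cyp2c11, the main male P450, read 35836, 39902 and 43585 in SD and 29021, 37254 and 33377 in F344 and was not called (-0.26 ± 0.11, adjusted p = 0.0804). Cyp2c12, the main female P450, read 2679, 19872 and 9045 in the SD males and 1622, 2709 and 1699 in the F344 males (-2.00 ± 0.55, adjusted p = 0.0176), and SD replicate 1 was below the highest F344 animal. Its value fell to -1.33 without SD replicate 2, and the call was lost without SD replicate 3 (adjusted p = 0.0508), F344 replicate 1 (0.058) or F344 replicate 3 (0.055) and without the intensity trend (0.0667). In dosed animals the Cyp2c12 signals were 6498 to 27677 in SD and 557.9 to 2051 in F344, which did not overlap. Of 9 measured female-predominant genes (12 on the array) 5 were lower and 2 were higher (77.8% called), Cyp3a9 (1.04 ± 0.17) and Sult2a6 (1.14 ± 0.20). Among the 5, Prlr and A1bg had a mean signal above 100 in SD only, and the A1bg call was lost in 3 of the 6 fits without 1 array. Cyp2c7 (-0.32) was no larger than the shift under median scaling. Of 13 measured male-predominant genes 2 were lower and 2 were higher (30.8%), none by 1 or more with the brightest probe set. Rup2 was not called with that probe set (-0.20) and was called lower with 2 others (-2.34 and -0.44). The call at -0.44 was lost in 3 of the 6 fits without 1 array.

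The drug metabolising P450s Cyp1a2 and Cyp2e1 were both called lower, with sizes that depended on the scaling. Cyp1a2, which oxidises aromatic amines and caffeine, read 19276, 18669 and 17210 in SD and 14690, 11578 and 12587 in F344 (-0.51 ± 0.10), but the call was lost under median scaling (-0.12). Cyp2e1, which oxidises ethanol, differed by -0.37 ± 0.11, was lost without F344 replicate 1 (-0.35, adjusted p = 0.06) or F344 replicate 3 (-0.37, adjusted p = 0.0614), and stood at 0.02 under median scaling. Of 23 measured drug metabolising P450s 11 were lower and 3 higher (60.9% called against 35.5% over all genes), with a median of -0.26 that became 0.13 under median scaling, where the median of all probe sets was 0.33. Dpp4, a cell surface peptidase that some F344 substrains lack, read 3280, 3051 and 3911 against 2596, 2937 and 2892. It was not called (-0.28 ± 0.11, adjusted p = 0.0695), and neither was its other probe set (-0.37). The array reads RNA, so whether these rats lacked the protein was not measured.

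Lox, lysyl oxidase, which crosslinks collagen and elastin, was high in the undosed SD animals. It read 2038, 664.8 and 5914 in SD and 68.2, 72.0 and 116.5 in F344 (-4.35 ± 0.59, adjusted p = 0.000358), and 397.4, 197.8 and 1184 against 34.8, 27.8 and 34.0 with its second probe set (-3.30 ± 0.50). In dosed SD rats the first signal was 64.7 to 434.2, below every undosed SD animal. The dosed difference was -0.92 ± 0.23. Dusp6, a phosphatase of ERK kinases, was lower in 2 probe sets (-3.65 ± 0.48 and -2.05 ± 0.26) and at 0.29 in the other.

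The circadian clock of the liver runs on activators (Clock, Npas2, Bmal1), repressors that they switch on (Per and Cry) and output genes such as Noct, a phosphatase of the dinucleotide cofactors that peaks sharply once a day. The hour of sampling is not given in the labels, and its part was not tested. Of 15 measured clock genes 10 were higher in F344 and 1 was lower (73.3% called against 35.5% over all genes), with a median of 0.72 against -0.05 over all probe sets tested, and the medians were 1.10 against 0.33 under median scaling. These values rest on the brightest probe set of each gene. Clock was called both ways, as was Cry2, whose other probe set was lower (-0.74, lost in 5 of the 6 fits without 1 array). Hlf, Per2, Tef and Usp2 were each called higher in only 1 of their probe sets. Noct read 74.0, 255.9 and 53.7 in SD and 1684, 1308 and 1626 in F344 (3.69 ± 0.40, adjusted p = 8.68e-05). The repressor Per1, named after its values were seen, read 33.4, 39.9 and 66.8 against 302.0, 146.1 and 436.3 (2.23 ± 0.37), and Cry1 read 963.7, 930.1 and 746.8 against 2495, 1689 and 1787 (1.15 ± 0.16).

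Activators of the clock did not all go one way. Npas2 was higher (0.96 ± 0.11). Clock was called both ways: its brightest probe set was higher (0.76 ± 0.12), a second was higher by 0.42 ± 0.14 (adjusted p = 0.0362) and a dimmer one was lower, with 196.0, 72.6 and 192.0 in SD and 19.3, 16.9 and 55.4 in F344 (-1.85 ± 0.44, adjusted p = 0.00826). The call at 0.42 was lost in 4 of the 6 fits without 1 array (without SD replicate 2 or 3 or F344 replicate 1 or 2, 0.34 to 0.39), so the direction of Clock was not settled. Bmal1, the shared partner of both, was the lower gene, with 803.9, 870.6 and 803.0 in SD and 554.1, 484.7 and 489.2 in F344 (-0.68 ± 0.11, adjusted p = 0.00125). Hlf, an output activator, was higher by 0.71 in its brightest probe set and not called in its others. In dosed animals the differences of Noct (0.41 ± 0.23) and Per1 (-0.16 ± 0.38) were not called, while those of Npas2, Cry1 and Hlf were 1.35, 1.24 and 0.76.

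**Figure D3:**
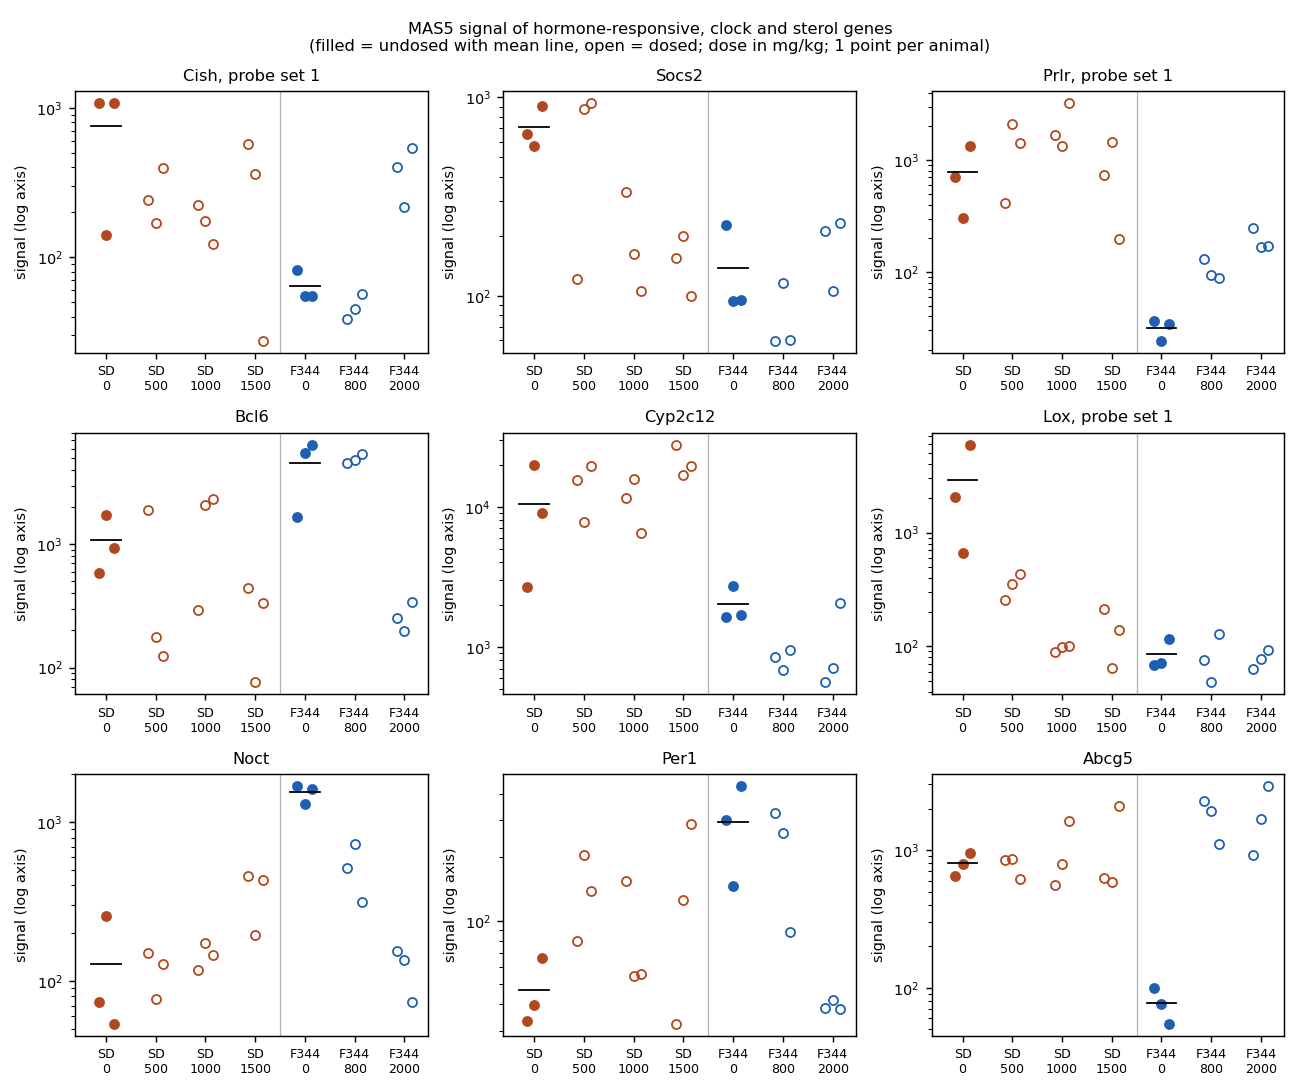
Signal of 9 probe sets in all 21 animals by strain and dose (mg/kg), on a log axis, with undosed animals filled and their mean drawn as a line. Noct, Per1 and Lox differ between the undosed groups and overlap in dosed animals, and Abcg5 is low in the 3 undosed F344 rats and high in every dosed animal.

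Cholesterol leaves the liver through the half-transporters Abcg5 and Abcg8, which work as a pair in the bile canaliculus and are switched on by the sterol sensor LXR, and through conversion to bile acids by Cyp7a1. Abcg5 read 650.4, 798.1 and 958.1 in SD and 100.2, 76.0 and 54.7 in F344 (-3.15 ± 0.22, adjusted p = 4.12e-06). Abcg8 read 167.8, 272.4 and 249.8 against 10.5, 36.6 and 22.0 (-2.68 ± 0.33, adjusted p = 0.000194). Neither overlapped. In dosed animals the direction was turned, with Abcg5 at 558.9 to 2084 in SD and 922.3 to 2906 in F344 (0.95 ± 0.32) and Abcg8 at 1.21 ± 0.41, and each of the 15 dosed animals had more Abcg5 signal than each undosed F344 rat. The pair lies head to head, and their RefSeq promoter windows share 295 bases. That of Abcg5 (GRCr8, chr6:15717686-15717985, plus strand) is shown because both members of the pair moved together.

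Abcg5 promoter: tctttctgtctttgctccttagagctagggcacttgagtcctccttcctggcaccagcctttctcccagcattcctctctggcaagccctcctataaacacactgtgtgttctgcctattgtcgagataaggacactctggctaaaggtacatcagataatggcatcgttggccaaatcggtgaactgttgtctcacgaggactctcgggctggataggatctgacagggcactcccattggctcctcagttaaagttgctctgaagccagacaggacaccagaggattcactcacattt

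Nr0b2, the nuclear receptor SHP that represses bile acid synthesis, was higher in F344, with 474.2, 1684 and 340.0 in SD and 3368, 4649 and 3569 in F344 (2.52 ± 0.45, adjusted p = 0.00177); it was named after its values were seen. Cyp7a1, the rate-limiting enzyme that SHP represses, read 1235, 4135 and 1261 against 3868, 3475 and 7911 (1.34 ± 0.44, adjusted p = 0.0351). Its groups overlapped through SD replicate 2, and the call was lost without SD replicate 1 (1.05), SD replicate 3 (1.06), F344 replicate 1 (1.48) or F344 replicate 3 (0.97). It was also lost without the filter, without the trend (adjusted p = 0.102) and with all 21 arrays in the fit (0.136). Of the other members, the bile acid and drug importer Slco1a4 (0.73 ± 0.09 in one probe set and -0.07 ± 0.10 in the other) and the bile acid ligase Slc27a5 (0.90 ± 0.11) were higher, and the export pump Abcb11, named for its role, was not called (-0.06 ± 0.14). Of 20 measured bile acid genes 5 were higher and 8 lower (65.0% called against 35.5% over all genes).

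Genes of fat and sterol synthesis are switched by the SREBP factors with feeding and sterol supply. Fasn, fatty acid synthase, was higher in both probe sets, with 3751, 6130 and 3432 in SD and 9187, 12796 and 11378 in F344 for the brighter one (1.36 ± 0.20) and 1.52 ± 0.20 for the other. Scd, which desaturates stearate, read 10752, 10273 and 16046 against 23242, 32042 and 31514 (1.24 ± 0.17, adjusted p = 0.000416), a call lost with all 21 arrays in the fit (adjusted p = 0.136). Fads2, which desaturates polyunsaturated fatty acids, was opposite, with 5562, 5963 and 5869 against 1756, 1792 and 1688 (-1.72 ± 0.08). Of 18 measured fatty acid synthesis genes 7 were higher and 5 lower (66.7% called). Acaca, counted as higher (0.74), had another probe set called lower (-1.03). Elovl5, counted as lower (-0.37), had another at -3.48.

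In sterol synthesis Insig1, the sterol-regulated brake of SREBP, was higher (1.51 ± 0.22) and Lss, lanosterol synthase, was higher in both probe sets (1.82 ± 0.24 and 1.84 ± 0.48), the second of which was lost without F344 replicate 1 (1.74) or F344 replicate 2 (1.73). The transcription factor Srebf2 was lower (-0.86 ± 0.11). Of 17 measured cholesterol genes 4 were higher and 7 lower (64.7% called). Both shares were above the 35.5% over all genes, and neither list moved one way. Alas1, the first enzyme of haem synthesis, which rises on fasting, read 4508, 5922 and 1932 against 10955, 15871 and 11118 (1.74 ± 0.33, adjusted p = 0.00259).

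Acute phase proteins are plasma proteins that the liver makes more of in inflammation. Of 19 measured, 11 were lower and 2 were higher in F344 (68.4% called against 35.5% over all genes), with a median of -0.37 that became 0.02 under median scaling, where the median of all probe sets was 0.33. Lbp, which binds bacterial lipopolysaccharide, read 3107, 3422 and 3002 in SD and 840.7, 826.1 and 812.5 in F344 (-1.92 ± 0.09, adjusted p = 4.08e-07). Crp, C-reactive protein, read 29019, 33124 and 37873 against 11551, 12723 and 10894 (-1.50 ± 0.11), and Lcn2, an iron-binding lipocalin that neutrophils also hold, read 201.3, 179.8 and 297.3 against 2.81, 16.3 and 8.57 (-3.27 ± 0.34). In dosed animals these differences were -2.63, -1.48 and -3.93. A2m, the classic acute phase protein of the rat, named for its role, was not called (-0.29 ± 0.32).

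Immediate early genes are switched on within minutes of a stimulus. Of 21 measured, 7 were higher and 4 lower (52.4% called against 35.5% over all genes), with a median of -0.16 against -0.05 over all probe sets tested. Ccn2, a matricellular growth factor, was higher (2.04 ± 0.26, adjusted p = 0.000248), and the phosphatase Dusp1 was called both ways, at 1.71 ± 0.10 with the brighter probe set and -1.27 ± 0.23 with the other. Ier3 was lower (-1.11 ± 0.16). Egr1, Egr2, Atf3 and Myc, named for their role, were not called, with values of -0.17, -0.08, -0.22 and -0.16.

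Markers of hepatocytes were high in both groups, as the labelled tissue calls for, with a summed signal of 643508 to 774301 on the SD arrays and 519269 to 630437 on the F344 arrays. Of 18 measured, 7 were lower and 1 was higher (44.4% called), with a median of -0.26 (0.13 under median scaling). Alb, albumin, read 44668, 51309 and 68712 in SD and 27024, 39249 and 29607 in F344 (-0.78 ± 0.17), a call lost under median scaling (-0.38). Apoa1, the main protein of high density lipoprotein, differed by -1.11 ± 0.09. Hnf4a, the transcription factor that maintains hepatocytes, had one probe set called higher (0.47) and others called lower (-2.12 and -1.37), so its direction was not settled.

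Bulk liver holds blood and other cells, and fewer cells of a type and less RNA per cell cannot be told apart. Blood cell markers were dim and measured in part only, and several passed the filter through the SD group, so no count is given over those that passed and the signals are summed over every probe set of the list on the array, tested or not. For 8 genes of B and plasma cells this sum was 1393 to 1851 in SD and 597.1 to 735.9 in F344. Among them the antibody joining chain Jchain was called lower (-1.40 ± 0.21), with mean signals of 514.3 in SD and 180.7 in F344. Cd37 (-1.94 ± 0.32) had 138.2 and 23.9. Of the other tested members Tnfrsf17 (-0.96) was called lower, and Fcrla (-1.10), Ms4a1 (-0.56) and Blk (1.08) were not called. For 9 erythroid genes the sum was 22061 to 23425 in SD and 13235 to 17836 in F344. Most of it came from the haemoglobin gene Hbb (-0.56 ± 0.11, lost under median scaling at -0.17). Alas2, which makes haem in red cells, differed by -1.50 ± 0.16. Of the other tested members Ahsp (-1.84) was called lower, and Slc4a1 (0.33) and Rhd (0.405) were not called. For 9 neutrophil genes the sum was 562.5 to 835.9 against 298.8 to 358.7, of which 3 were tested. These were Lcn2, S100a9 (-0.64 ± 0.19) and S100a8 (-0.77 ± 0.32, adjusted p = 0.0841); S100a9 was lost without SD replicate 2 (-0.56), without F344 replicate 3 (-0.51), under both other scalings and with all 21 arrays in the fit.

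Over the Kupffer, endothelial and stellate cell lists the called share was 22.7% to 40%, against 35.5% over all genes. Some lists of resident cells held single large differences. Of 15 measured Kupffer cell genes 4 were lower and 2 higher (40% called), none by 1 or more with the brightest probe set. The summed signals were 37037 to 38828 in SD and 35683 to 38100 in F344. Cd5l was not called with its brightest probe set (-0.14) and was called lower with the other (-1.05, lost in 4 of the 6 fits without 1 array). Of 15 endothelial genes 5 were lower and none higher (33.3%), with Tie1 at -0.84 ± 0.18 (lost under median scaling at -0.47), and Lyve1 was called lower with one probe set (-0.69) and higher with the other (0.64). T and NK genes were measured in part (14 of 20 on the array). Of the 14, 4 had a mean signal above 100 in SD only and 1 in F344 only, so no share is given. Klrk1 (-1.35) and Cd4 (-1.26) were called lower, and Cd3g (0.97), Prf1 (0.74) and Ccl5 (0.43) higher. The calls of Cd3g, Prf1 and Ccl5 were lost in 4, 5 and 4 of the 6 fits without 1 array. Over all 20 genes the summed signals were 2683 to 3200 in SD and 2584 to 3091 in F344. Of 22 measured stellate and matrix genes 2 were lower, Lox (given above) and the smooth muscle actin Acta2 (-1.25 ± 0.28), and 3 were higher (22.7%), among them Loxl1 (1.51 ± 0.34) and Sparc. Sparc was called both ways, at -1.43 ± 0.17 and 1.18 ± 0.11. Col1a1, Col4a1 and Col5a1 were not called with their brightest probe sets. Their other probe sets were at -2.62, -1.11 and 1.935, and were called in every fit without 1 array. Acta2 and Loxl1 were dim, with mean signals of 226.7 and 26.7 in SD and 87.1 and 103.1 in F344.

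Bile duct genes were measured in part (7 of 11 on the array). Of the 7, 1 had a mean signal above 100 in SD only (Spp1) and 1 in F344 only (Cldn7), so no share is given. Those called lower were Onecut1, given above, Epcam (-0.55 ± 0.13, lost under median scaling at -0.17) and Spp1, osteopontin (-1.37 ± 0.48, adjusted p = 0.0445). The Spp1 groups overlapped, and its call was lost in 4 of the 6 fits without 1 array (without SD replicate 2 or 3 or F344 replicate 2 or 3, -1.36 to -0.97) and under both other scalings. Called higher was Cldn7, a tight junction protein, with 4.27, 5.08 and 3.87 in SD and 135.3, 322.4 and 253.8 in F344 (3.56 ± 0.37). Krt19 (-0.06 ± 0.27), Muc1 (-0.29 ± 0.29) and Tff3 (-0.04 ± 0.23) were not called, so the duct markers did not share a direction. Over all 11 genes the summed signals were 2340 to 4678 in SD and 1678 to 1849 in F344. The parts of these cells in the other differences were not tested.

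**Figure D4:**
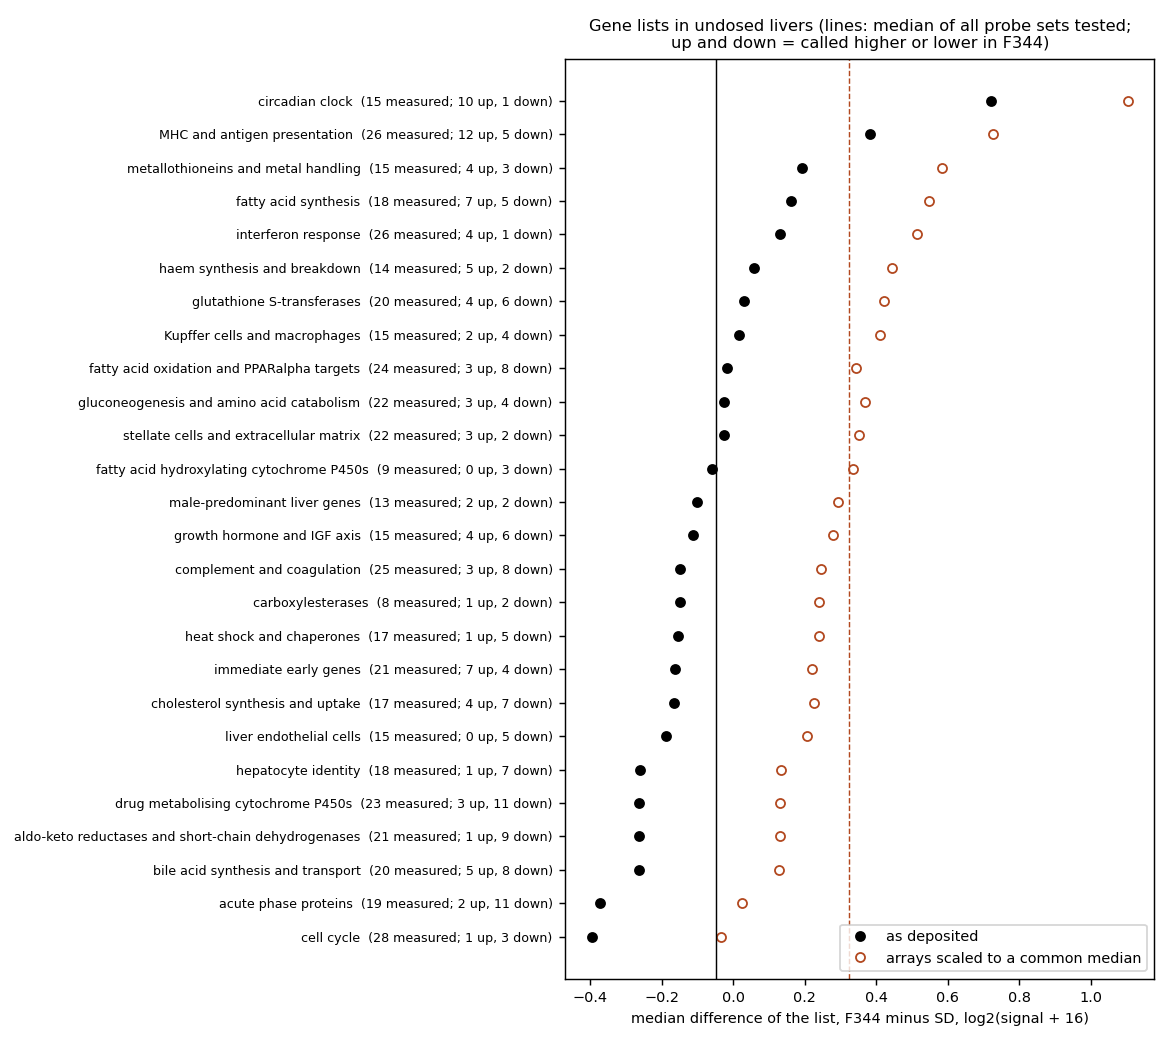
Median difference (F344 minus SD, undosed, log2(signal + 16)) of the 26 gene lists with more than 75% of their genes on the array measured, with the values as deposited (filled) and with arrays scaled to a common median (open). The lines give the median of all probe sets tested, -0.05 and 0.33, and the labels count measured genes and those called higher or lower. Clock genes lie farthest above the lines and cell cycle and acute phase genes farthest below. Of the 28 measured cell cycle genes 1 was called higher and 3 lower (14.3%, below the 35.5% over all genes).

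The animals of the outbred stock varied more among themselves on a few genes. The median standard deviation of log2 values within a group was 0.2 in undosed SD and 0.168 in undosed F344, with 3 animals each. Signals that differed by at least 4-fold between the highest and the lowest animal of a group, with the highest above 400, were found for 42 of 8836 probe sets in SD and 8 of 8633 in F344. In SD the widest were Zfp212, a zinc finger gene (427.1, 889.8 and 32.2), Ubd, an interferon-induced ubiquitin-like protein (6335, 257.0 and 2514), and Abhd3, a phospholipase (32.0, 641.9 and 587.3). Ephx2, soluble epoxide hydrolase, read 192.8, 2918 and 284.6 in SD and 2155, 2589 and 2055 in F344, so that 1 SD animal was at the F344 level and 2 were below it. The Abhd3 difference between strains (-2.40 ± 0.82, adjusted p = 0.0412) was lost on leaving out SD replicate 2 (-1.75), SD replicate 3 (-1.82) or any F344 replicate (-2.54 to -2.28) and was -3.64 without SD replicate 1. It was also lost with no filter, quantile normalization, no trend or all 21 arrays in the fit.

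In F344 the widest gene was Rgs16, a regulator of G protein signalling that follows feeding and fasting, with 122.1, 259.6 and 1354. It was followed by Serpina7, thyroxine-binding globulin (112.7, 711.7 and 477.8), the clock gene Bhlhe40 (1208, 443.7 and 272.2) and Igfbp1, which rises on fasting (3387, 5366 and 13975). F344 replicate 3 was the highest in Rgs16 and Igfbp1 and replicate 1 in Bhlhe40, so no single animal stood apart on all. None of these 4 genes was called between the strains. Tbl1x, a corepressor subunit, ranged from 39.4 to 557.9 in SD, and the inositol kinase Ip6k2 from 122.9 to 444.9 in F344, below every SD animal (-1.50 ± 0.36).

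The dosed animals gave a second reading of the strain difference in other rats, though with the compounds on board. There 10153 of 18625 probe sets (54.5%) were called. Of 3209 called higher in undosed F344, 2718 were called higher in dosed F344 too (84.7%, and 55.0% of those called higher in dosed animals) and 21 were called lower. Of 3667 called lower, 2884 were again lower (78.6%, and 55.3% of the dosed calls) and 19 were higher. Signals of the 12 SD and 9 F344 animals were fully apart for 58 of the 78 probe sets higher by at least 2 (74.4%). This held too for 256 of the 329 that were lower by at least 2 (77.8%). Over all probe sets called in undosed animals the shares were 42.8% (higher) and 42.5% (lower). The undosed animals that served to choose these probe sets are among those compared, so part of the separation came with the choice. The beta-actin ratio was apart between the strains in dosed animals too, and its part was not tested. The 3 large differences that were called the opposite way included Abcg5 and Abcg8.

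**Figure D5:**
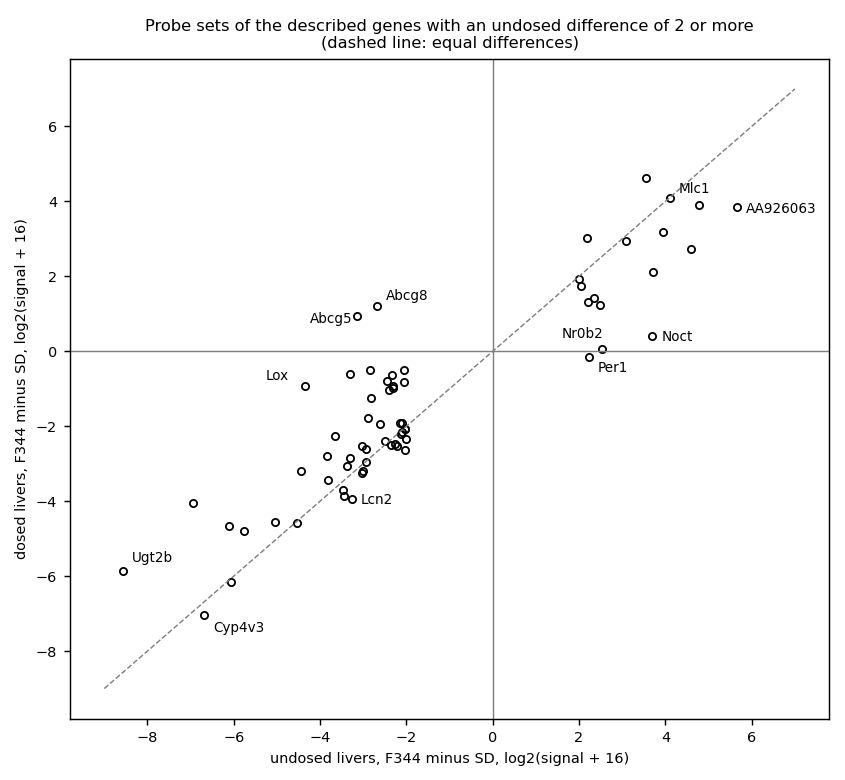
Difference between the strains in undosed animals (horizontal) and in dosed animals (vertical), F344 minus SD on log2(signal + 16), for 66 probe sets of the described genes that differed by at least 2 in undosed animals. The sign was the same for 63, Cyp4v3 and Mlc1 lie close to the line of equal differences, and Noct, Per1, Nr0b2 and Lox lie within 1 of 0 on the vertical axis.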

How the data were processed

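Liver RNA was labelled by in vitro transcription and read on 1-colour Affymetrix arrays. The authors deposited 1 linear intensity per probe set and array; the submitters' processing notes name MAS5 without a version. Of 31042 probe sets other than controls, 20826 had 1 gene symbol, 436 several and 9780 none in the platform annotation; 20764 symbols passed through the Entrez identifier. A listed gene was represented by its tested probe set with the highest mean.

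The 6 undosed arrays were fitted as log2(signal + 16) with limma 3.58.1 (R 4.3.3; lmFit, eBayes with trend), keeping probe sets whose mean exceeded the 40th percentile. P-values were two-sided and Benjamini-Hochberg adjusted over 18625 probe sets, with a threshold of 0.05. The 15 dosed arrays were fitted alike, as the mean of the DAM dose groups minus that of the PBO dose groups. The labels call replicates biological. The 3 arrays per group limit the precision. The fit was tested on simulated data.

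Members and gene lists were chosen with earlier results of these data known. The rule for named genes took the 12 largest median differences in each direction with at least 2 probe sets past 2, the 6 largest others, the 6 widest within each strain, up to 4 members of each described list by adjusted p, and 10 fixed genes. Genes named outside it were chosen after their values were seen. Alternatives were pseudocounts of 1 and 64, no filter and the 60th percentile, quantile and median scaling, no trend, the replicate block, all 21 arrays, and each array left out. Promoters are from RefSeq (GRCr8).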

Additional observations from a re-analysis of the deposited data

How the results depend on the processing

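The count of called probe sets was 5415 to 6070 with 1 array left out and stayed within 1.5 times of 6876 under the other alternatives, with 5662 of the called probe sets shared under quantile normalization and 4857 under median scaling. The 407 large differences became 219 with a pseudocount of 64 and 246 with the filter at the 60th percentile, which tested fewer probe sets, and 398 to 441 with 1 array left out. Genes on in SD and low in F344 numbered 1, became 0 with the stricter limits (on above 800, low below 50), which the first Ugt2b probe set missed with F344 signals of 55.0 and 73.8, and were 1 to 2 with 1 array left out, the second being Cish without SD replicate 2. Under median scaling, which moved the median of all probe sets upward, Cyp2e1 turned to 0.024, Igf1 (brightest probe set) to 0.34, Hsd3b5 to 0.13 and Hpx to 0.023. The Gcdh probe set at -0.10 turned to 0.29 and the Nedd4 probe set at -0.28 to 0.11. These are not the probe sets of Gcdh and Nedd4 that had a large deficit.

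Same-numbered arrays did not deviate together (r of 0.006, 0.022 and -0.002 across probe sets), so the numbers do not pair the animals. With the replicate block 6764 probe sets were called. Arrays give no depth, and signals near 0 carry no order.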
